A study of Mus musculus with 7 samples.

Results

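Astrocyte transport and identity genes were followed through bulk RNA-seq of 2 mouse glioblastoma (GBM) models. The set holds 10 genes chosen by name, out of 49492 genes in the deposited table of raw counts: *Aqp4*, *Slc1a2*, *Slc1a3*, *Gja1*, *Gjb6*, *Aldh1l1*, *Fam107a*, *Dio2*, *Slc39a12* and *Glul*. All 10 held counts in at least 6 of the 7 libraries and all passed the filter on low counts.

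The 3 NSCHRas-shp53 libraries came from whole tumor tissue that was not sorted. These tumors were started by injecting a lentivirus, which carries a short hairpin RNA against *Trp53* and a constitutively active human HRAS, into the subependymal ventricular zone of adult mice. The 4 NPCTKO libraries came from tumor masses dissociated into single cells, from which FACS took the EGFP+ or DsRed+ cells. These tumors were started in embryos by in utero electroporation of piggyBac plasmids that carry Cas9 and guide RNAs against genes that include *Trp53* and *Nf1* into the dorsal forebrain. The labels give C57BL/6 as the strain and 3 months as the age for all 7 samples, and name all of them GBM cells. *Trp53* is thus targeted in both groups, by knockdown in NSCHRas-shp53 and by editing in NPCTKO. Model and preparation (whole tissue or sorted cells) cannot be told apart. In bulk RNA, fewer cells of a type and less RNA per cell cannot be told apart either. The study speaks of the samples as separate tumors, but that they are separate mice is not stated, so p-values measure the spread between these samples, which may be technical in part.

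Astrocytes clear glutamate from the synaptic cleft through the transporters encoded by *Slc1a2* and *Slc1a3*, and glutamine synthetase, encoded by *Glul*, turns it into glutamine. Their end-feet around blood vessels carry the water channel aquaporin 4, encoded by *Aqp4*, and neighboring astrocytes are coupled by gap junctions built from connexins encoded by *Gja1* and *Gjb6*. Several of these genes are used as markers of mature astrocytes, and some, *Slc1a3* and *Glul* in particular, are also expressed by radial glia, stem cells of the subventricular zone and other glia.

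As measured for the whole series, libraries held 17529054 to 19840860 counts in NSCHRas-shp53 and 15002873 to 19247326 counts in NPCTKO. A count of 3, taken here as the floor of detection, corresponds to 0.130 to 0.234 CPM (counts scaled to a common library size with TMM factors). This floor covers counting error only. *Trp53* was read at 54.9 to 82.3 CPM in NSCHRas-shp53 and at 91.9 to 200.7 CPM in NPCTKO, and gene counts do not show whether a gene was edited. NPCTKO libraries 1 and 2 stood apart from 3 and 4 in base composition. The Spearman correlation, across 15674 genes that are not independent replicates, between the deviation of a library from the mean of all 7 and transcript GC content was -0.16 to -0.28 in NSCHRas-shp53, 0.57 and 0.49 in NPCTKO 1 and 2, and -0.37 and -0.35 in NPCTKO 3 and 4. Without these 2 libraries the 8 calls among the 10 genes described next were kept, with log2 fold changes from 2.36 (*Slc1a3*) to 7.74 (*Fam107a*), and calls of other named genes that were lost are given beside them.

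Of the 10 genes, 8 rose in NSCHRas-shp53 relative to NPCTKO by edgeR's quasi-likelihood test (adjusted p under 0.05) and 0 fell. Over all 16091 genes tested, 7.77% rose and 5.28% fell. The median log2 fold change of the 10 genes was 4.52, against -0.10 over all genes tested. In 9 of the 10 genes every NSCHRas-shp53 library lay above every NPCTKO library, a pattern shown by 16.3% of all genes tested. The 10 genes were chosen with earlier results of these data known, so these contrasts with all genes are descriptions and no independent support. The exceptions to the test were *Aldh1l1*, whose groups did not overlap, and *Glul*, whose groups did. *Gjb6* and *Slc39a12* passed the filter on low counts only through the NSCHRas-shp53 libraries, so a difference in these 2 genes was a condition of their being tested.

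**Figure D1:**
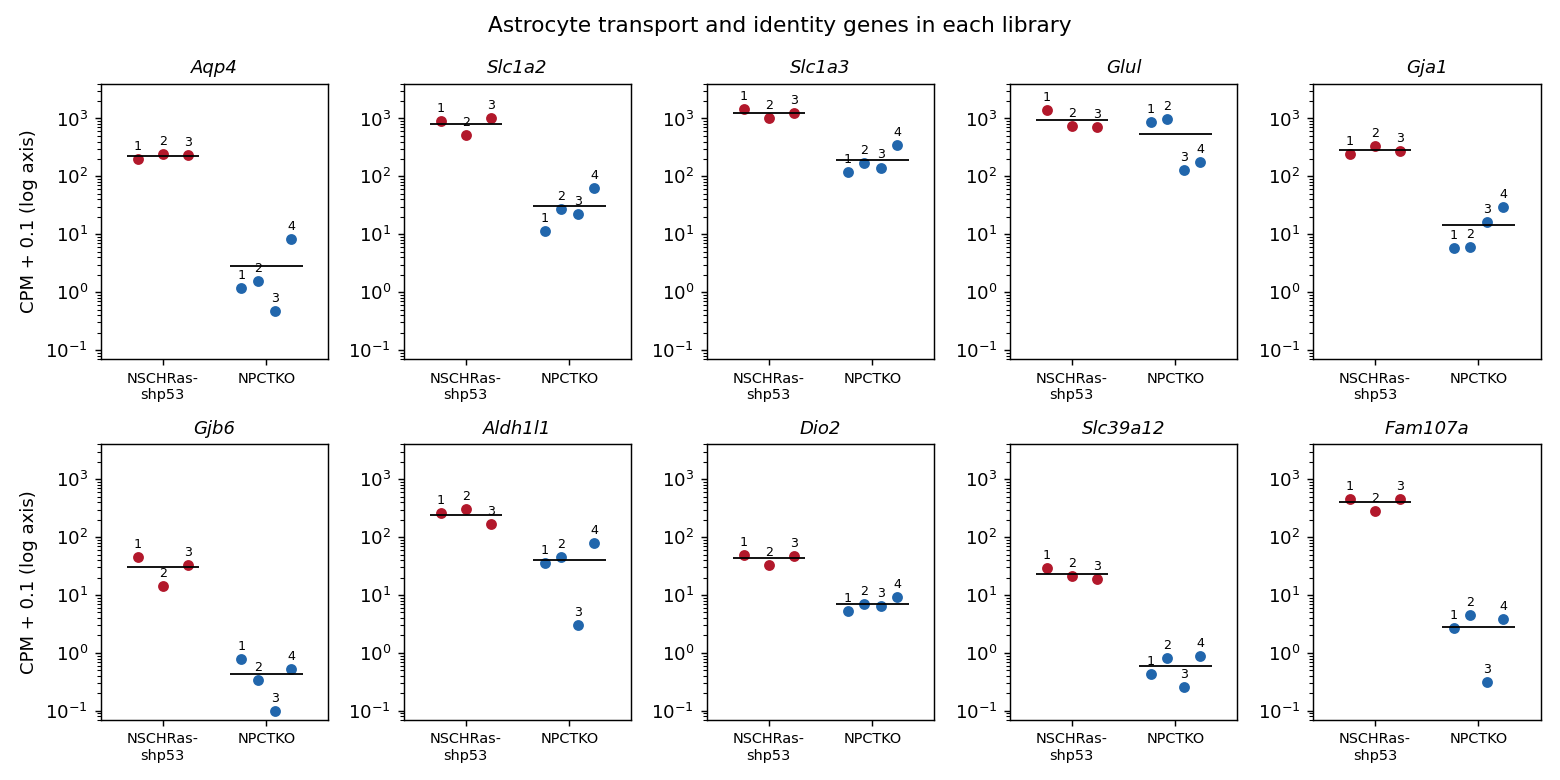
CPM, with 0.1 added and on a log axis, of the 10 genes in each library. Points are libraries numbered within their group, and bars are group means. All 3 NSCHRas-shp53 points lie above all 4 NPCTKO points in 9 panels, and in *Glul* NPCTKO 1 and 2 lie at 872 and 980 CPM, within the NSCHRas-shp53 range of 712 to 1416 CPM.

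*Aqp4*, the water channel of astrocyte end-feet, lies on chromosome 18 of mm10 from 15389394 to 15403684, on the minus strand. It was read at 203, 247 and 237 CPM in NSCHRas-shp53, against 1.08, 1.48, 0.365 and 8.22 CPM in NPCTKO libraries 1 to 4. The NSCHRas-shp53 libraries were close to each other, whereas NPCTKO 4 held several times as much as the other NPCTKO libraries and NPCTKO 3 the least. *Aqp4* averaged 229 ± 22.9 CPM in NSCHRas-shp53 (SD, n = 3) and 2.79 ± 3.65 CPM in NPCTKO (SD, n = 4), a log2 fold change of 6.36 ± 0.99 (SE; adjusted p = 0.0080 from edgeR).

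Other aquaporins and the protein complex that anchors aquaporin 4 in the end-foot gave 18 tested genes. Of these, 4 rose (*Aqp1*, *Mlc1*, *Hepacam* and *Lama2*) and 0 fell, against 7.77% and 5.28% of all genes tested. Their median log2 fold change was 0.81. *Mlc1*, which encodes a membrane protein of perivascular astrocyte processes, was read at 393, 350 and 289 CPM in NSCHRas-shp53, against 7.74, 15.8, 2.87 and 27.0 CPM in NPCTKO. As with *Aqp4*, NPCTKO 4 was highest and NPCTKO 3 lowest of their group. Its log2 fold change was 4.69 ± 0.70 (SE; adjusted p = 0.0072 from edgeR). *Hepacam*, whose product is a cell adhesion protein that binds MLC1, had 113 to 135 CPM in NSCHRas-shp53 and 38.2 to 57.3 CPM in NPCTKO, with a log2 fold change of 1.499 ± 0.26 (SE; adjusted p = 0.011 from edgeR). *Dag1*, the dystroglycan that links the complex to the basal lamina, was not called and had 148 to 251 CPM in NSCHRas-shp53 and 205 to 263 CPM in NPCTKO.

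Both astrocyte glutamate transporters rose. *Slc1a2*, the main glutamate transporter of the mature forebrain (chromosome 2 of mm10, 102658659 to 102790784, plus strand), was read at 921, 516 and 1011 CPM in NSCHRas-shp53, against 11.2, 26.8, 22.04 and 63.5 CPM in NPCTKO. Its lowest NSCHRas-shp53 library, the second, still lay far above its highest NPCTKO library, the fourth. The log2 fold change was 4.72 ± 0.63 (SE; adjusted p = 0.0051 from edgeR).

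*Slc1a3*, a glutamate transporter that radial glia and Bergmann glia also express (chromosome 15 of mm10, 8634124 to 8710764, minus strand), was read at 1448, 1012 and 1239 CPM in NSCHRas-shp53, against 118, 170.3, 142 and 349 CPM in NPCTKO. It was thus well detected in every NPCTKO library, again with the most in the fourth. The log2 fold change was 2.66 ± 0.46 (SE; adjusted p = 0.011 from edgeR). Per length, in the deposited FPKM values, the ratio of *Slc1a3* to *Slc1a2* was 4.09, 5.80 and 3.205 in NSCHRas-shp53, against 20.9, 15.2, 10.3 and 12.9 in NPCTKO. *Slc1a3* was the more abundant transporter in all 7 libraries, and every NPCTKO ratio lay above every NSCHRas-shp53 ratio.

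*Glul*, glutamine synthetase (chromosome 1 of mm10, 153899944 to 153909723, plus strand), was read at 1416, 747 and 712 CPM in NSCHRas-shp53, against 872, 980, 131 and 175 CPM in NPCTKO. NPCTKO 1 and 2 lay among the NSCHRas-shp53 libraries and NPCTKO 3 and 4 far below them. The log2 fold change of 0.83 ± 0.74 (SE) did not pass the test (adjusted p = 0.48 from edgeR). With NPCTKO 1 and 2 left out together it was 2.68 ± 0.44 (SE; adjusted p = 0.015 from edgeR), while leaving out single libraries gave 0.49 to 1.34. The summed CPM of 9 microglia and macrophage markers moved with this split. It was 17707 and 21697 in NPCTKO 1 and 2, and 414 and 2742 in NPCTKO 3 and 4, although reporter-positive cells were sorted. That of 10 oligodendrocyte markers was 6456, 6328, 4499 and 987 in NPCTKO 1 to 4. The part of these cells, and of the lean towards GC-rich transcripts in NPCTKO 1 and 2, in the *Glul* values was not tested.

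Per length, *Glul* and *Slc1a3* lay close to each other in NSCHRas-shp53, where the ratio of *Glul* to *Slc1a3* was 1.58, 0.984 and 0.874. In NPCTKO it was 10.5, 8.01, 1.81 and 0.767, so that *Glul* led in 3 of the 4 libraries and the groups overlapped only through the fourth.

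Most other genes of glutamate and glutamine handling were not called. Of 18 tested, 1 rose (*Slc17a7*) and 1 fell (*Asns*), against 7.77% and 5.28% of all genes tested. Their median log2 fold change was -0.34. *Slc17a7* would not have passed the filter on low counts through the NPCTKO libraries alone. *Slc17a7*, the vesicular glutamate transporter of excitatory neurons, was read at 127, 15.6 and 95.0 CPM in NSCHRas-shp53, against 6.79, 6.16, 0.260 and 0.484 CPM in NPCTKO, with a log2 fold change of 4.54 ± 1.18 (SE; adjusted p = 0.040 from edgeR). *Asns*, asparagine synthetase, was read at 51.8, 54.5 and 81.1 CPM in NSCHRas-shp53, against 114, 137, 122 and 200.6 CPM in NPCTKO, and fell by 1.20 on the log2 scale (SE 0.32; adjusted p = 0.046 from edgeR). The *Asns* call was lost without TMM factors (adjusted p = 0.15 from edgeR). *Slc7a11*, the cystine and glutamate antiporter, was not called at 97.7 to 138 CPM in NSCHRas-shp53 and 13.1 to 73.4 CPM in NPCTKO (adjusted p = 0.080 from edgeR).

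Both astrocyte connexins rose. *Gja1*, connexin 43 (chromosome 10 of mm10, 56377300 to 56390419, plus strand), was read at 244, 335 and 278 CPM in NSCHRas-shp53, against 5.65, 6.01, 16.05 and 29.9 CPM in NPCTKO, a log2 fold change of 4.31 ± 0.63 (SE; adjusted p = 0.0068 from edgeR). Without NPCTKO 1 and 2 it was 3.67 ± 0.38 (SE). NPCTKO 1 and 2 were low, and NPCTKO 4 was highest of its group but far below every NSCHRas-shp53 library. *Gjb6*, connexin 30 (chromosome 14 of mm10, 57123303 to 57133611, minus strand), was read at 44.8, 14.3 and 33.3 CPM in NSCHRas-shp53 (819, 281 and 769 counts), against 0.673, 0.234, 0 and 0.423 CPM in NPCTKO (10, 3, 0 and 7 counts). NPCTKO 2 and 3 were thus at or under the floor of 3 counts, and the fold rests on few reads on that side. The fitted log2 fold change was 6.53 ± 0.92 (SE; adjusted p = 0.0063 from edgeR), and 7.25 without NPCTKO 1 and 2.

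In FPKM, *Gja1* exceeded *Gjb6* 3.76-, 15.99- and 6.02-fold in NSCHRas-shp53, against 5.60-, 13.6- and 41.6-fold in NPCTKO 1, 2 and 4, with *Gjb6* listed at 0 in NPCTKO 3. These ratios overlapped between the groups. The list of other connexins, which includes *Tjp1*, held 9 tested genes. Of these, 1 rose (*Gjb2*) and 1 fell (*Gjc3*), against 7.77% and 5.28% of all genes tested. Their median log2 fold change was 1.34. *Gjb2*, connexin 26, had 8.47, 4.11 and 4.02 CPM in NSCHRas-shp53 and 0.673, 1.33, 0.417 and 1.63 CPM in NPCTKO. Its log2 fold change was 2.45 ± 0.60 (SE; adjusted p = 0.034 from edgeR, and 0.065 without NPCTKO 1 and 2). *Gjb2* would not have passed the filter on low counts through the NPCTKO libraries alone. *Gjc3*, a connexin of the oligodendrocyte lineage, had 67.5, 35.01 and 32.1 CPM in NSCHRas-shp53 and 109, 180, 348 and 298 CPM in NPCTKO, and fell by 2.38 on the log2 scale (SE 0.50; adjusted p = 0.021 from edgeR).

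*Aldh1l1*, the cytosolic 10-formyltetrahydrofolate dehydrogenase that is widely used as a marker of astrocytes (chromosome 6 of mm10, 90486427 to 90600203, plus strand), was read at 264, 301 and 168 CPM in NSCHRas-shp53, against 36.3, 45.5, 2.92 and 78.8 CPM in NPCTKO. The groups did not overlap, but NPCTKO 3 lay far below the rest of its group. The log2 fold change of 2.58 ± 0.82 (SE) missed the threshold (adjusted p = 0.074 from edgeR). Without NPCTKO 3 it was 2.19 ± 0.40 (SE; adjusted p = 0.015 from edgeR), and limma on log2(FPKM + 1) gave 3.14 ± 0.81 (SE; adjusted p = 0.036). *Aldh1l1* was called in 5 of 17 alternative fits. When single libraries were left out, its adjusted p from edgeR reached up to 0.198. Other annotated genes overlap 34.9% of its exon bases, and the labelled kit does not keep strand, so part of these reads cannot be assigned with certainty.

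Most other genes of folate one-carbon metabolism were not called either. Of 21 tested, 1 rose (*Ggh*) and 4 fell (*Shmt1*, *Shmt2*, *Tyms* and *Slc19a1*), against 7.77% and 5.28% of all genes tested. Their median log2 fold change was -0.72. *Shmt1*, the cytosolic serine hydroxymethyltransferase, was read at 18.1, 11.4 and 13.5 CPM in NSCHRas-shp53, against 82.7, 68.5, 52.6 and 74.5 CPM in NPCTKO, and fell by 2.28 on the log2 scale (SE 0.31; adjusted p = 0.0055 from edgeR). *Shmt2*, its mitochondrial counterpart, fell by 1.62 (SE 0.33), and *Tyms*, thymidylate synthase of dividing cells, by 1.57 (SE 0.30), on the log2 scale in both (adjusted p = 0.018 and 0.014 from edgeR). The *Slc19a1* call was lost without TMM factors (adjusted p = 0.051 from edgeR) and without NPCTKO 1 and 2 (adjusted p = 0.085 from edgeR). *Ggh*, which trims the glutamate tail of folates, rose with a log2 fold change of 1.37 ± 0.28 (SE; adjusted p = 0.019 from edgeR).

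*Dio2*, the deiodinase with which astrocytes turn thyroxine into the active thyroid hormone (chromosome 12 of mm10, 90724554 to 90738438, minus strand), was read at 49.8, 32.4 and 47.4 CPM in NSCHRas-shp53, against 5.25, 6.86, 6.41 and 9.01 CPM in NPCTKO. Of the 10 genes it had the most even values in NPCTKO. The log2 fold change was 2.65 ± 0.33 (SE; adjusted p = 0.0039 from edgeR). Of 15 other genes of thyroid hormone handling, 4 rose, *Slco1a4*, *Crym* and *Nrgn* among them, and 1 fell (*Hr*). Their median log2 fold change was 0.76, and over all genes tested 7.77% rose and 5.28% fell. *Crym*, whose product binds thyroid hormone in the cytosol, rose with a log2 fold change of 2.42 ± 0.44 (SE; adjusted p = 0.013 from edgeR). *Hr*, a corepressor that thyroid hormone induces in the rodent brain, was read at 28.8, 13.2 and 15.7 CPM in NSCHRas-shp53, against 86.0, 106, 78.2 and 66.7 CPM in NPCTKO, and fell by 2.13 on the log2 scale (SE 0.36; adjusted p = 0.010 from edgeR). *Slco1a4* is also a gene of brain endothelium and *Nrgn* one of neurons. The *Slco1a4* call was lost without NPCTKO 1 and 2 (adjusted p = 0.090 from edgeR) and with trends with GC content and length removed (adjusted p = 0.057 from edgeR).

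*Slc39a12*, a zinc importer enriched in brain (chromosome 2 of mm10, 14388316 to 14494977, plus strand), was read at 29.3, 20.95 and 19.1 CPM in NSCHRas-shp53 (536, 413 and 442 counts), against 0.336, 0.702, 0.156 and 0.786 CPM in NPCTKO (5, 9, 3 and 13 counts). All NPCTKO libraries lay near the floor. The fitted log2 fold change was 5.54 ± 0.59 (SE; adjusted p = 0.0028 from edgeR). Of 21 other zinc transporters tested, 2 rose (*Slc39a10* and *Slc30a3*) and 0 fell, against 7.77% and 5.28% of all genes tested. Their median log2 fold change was 0.07. *Slc39a10* had 113 to 123 CPM in NSCHRas-shp53 and 28.7 to 66.1 CPM in NPCTKO, a log2 fold change of 1.28 ± 0.33 (SE; adjusted p = 0.039 from edgeR, and 0.081 without TMM factors). *Slc30a3*, which loads zinc into synaptic vesicles, had 14.9, 0.457 and 9.13 CPM in NSCHRas-shp53 and 0.121 to 1.01 CPM in NPCTKO. Its groups overlapped through NSCHRas-shp53 2 (adjusted p = 0.045 from edgeR, and 0.057 without NPCTKO 1 and 2). *Slc30a3* would not have passed the filter on low counts through the NPCTKO libraries alone.

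*Fam107a*, which encodes a stress-inducible protein that binds actin (chromosome 14 of mm10, 8296274 to 8318023, minus strand), had the largest fold change of the 10 genes in edgeR on all libraries, while *Aqp4* exceeded it without NPCTKO 4 (log2 fold change 7.89 against 7.39) and with the replicate block (8.02 against 7.85). It was read at 462, 278 and 461 CPM in NSCHRas-shp53, against 2.56, 4.45, 0.208 and 3.69 CPM in NPCTKO. The second NSCHRas-shp53 library was the lowest of its group, as it was for *Slc1a2*, *Slc1a3*, *Gjb6* and *Dio2*, and NPCTKO 3 was close to the floor. The log2 fold change was 7.21 ± 0.88 (SE; adjusted p = 0.0039 from edgeR).

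**Figure D2:**
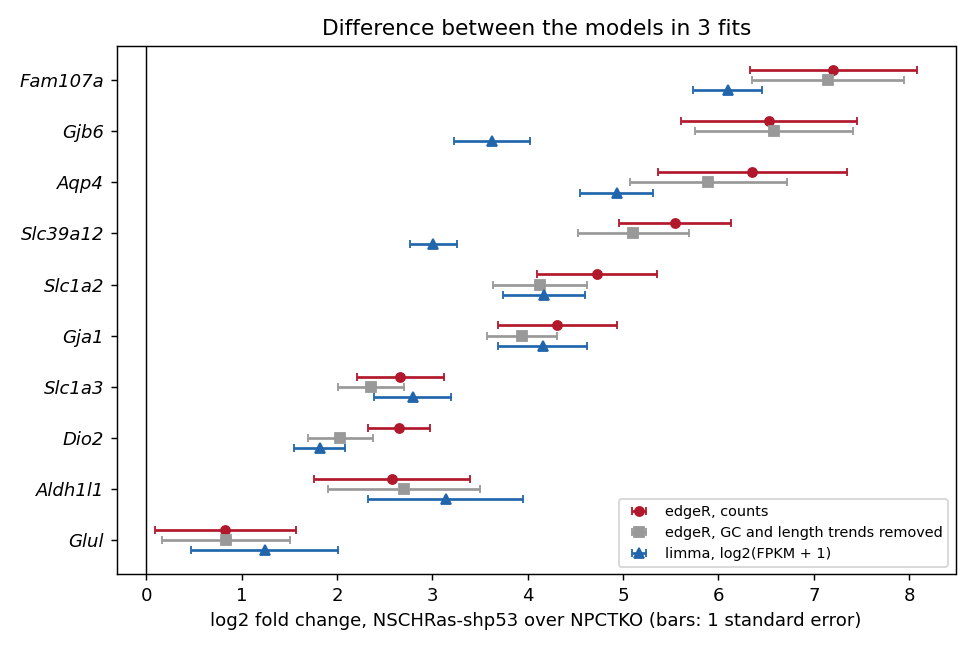
Log2 fold change of each of the 10 genes, NSCHRas-shp53 over NPCTKO, with 1 standard error, in edgeR on counts, in edgeR with trends with GC content and transcript length removed, and in limma on log2(FPKM + 1). All points lie above 0, from *Glul* (0.83 in edgeR) to *Fam107a* (7.21 in edgeR), and the limma values of *Gjb6* and *Slc39a12*, which are low in NPCTKO, are the most compressed.

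The 8 genes called were also called in each of 17 alternative fits, with adjusted p of at most 0.045. Without TMM factors the median log2 fold change of all genes was 0.09 in place of -0.10, and that of the 10 genes 4.61. With trends with GC content and transcript length removed it was -0.27 for all genes and 4.04 for the 10 genes, of which 9 rose. These fits moved the split of calls over all genes from 1251 higher and 850 lower to 1211 and 540 without TMM factors, and to 1474 and 2148 with the trends removed. None of the 10 genes changed direction in any of the 17 fits. In limma on log2(FPKM + 1), 9 of the 10 genes rose, where 9.20% of 13636 genes did.

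Levels in FPKM, which are per length and can be compared between genes, had *Glul* and *Slc1a3* at the top in both groups. In NSCHRas-shp53, the order of mean FPKM was *Glul* (382), *Slc1a3* (325), *Fam107a* (125), *Aldh1l1* (102), *Gja1* (97.5), *Slc1a2* (80.5), *Aqp4* (46.3), *Gjb6* (15.5), *Slc39a12* (8.72) and *Dio2* (7.90). Among neighbors in this order, the libraries overlapped in all steps but those from *Slc1a3* to *Fam107a* and from *Aqp4* to *Gjb6*. In NPCTKO the order was *Glul* (217), *Slc1a3* (50.7), *Aldh1l1* (14.5), *Gja1* (5.45), *Slc1a2* (3.67), *Dio2* (1.48), *Fam107a* (0.881), *Aqp4* (0.695), *Gjb6* (0.209) and *Slc39a12* (0.196), and the step from *Slc1a3* to *Aldh1l1* alone did not overlap. *Fam107a* thus held the third place in NSCHRas-shp53 and the seventh in NPCTKO, and *Dio2* the last place in NSCHRas-shp53 and the sixth in NPCTKO. The FPKM row of *Glul* also carries the name of a microRNA gene inside it.

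**Figure D3:**
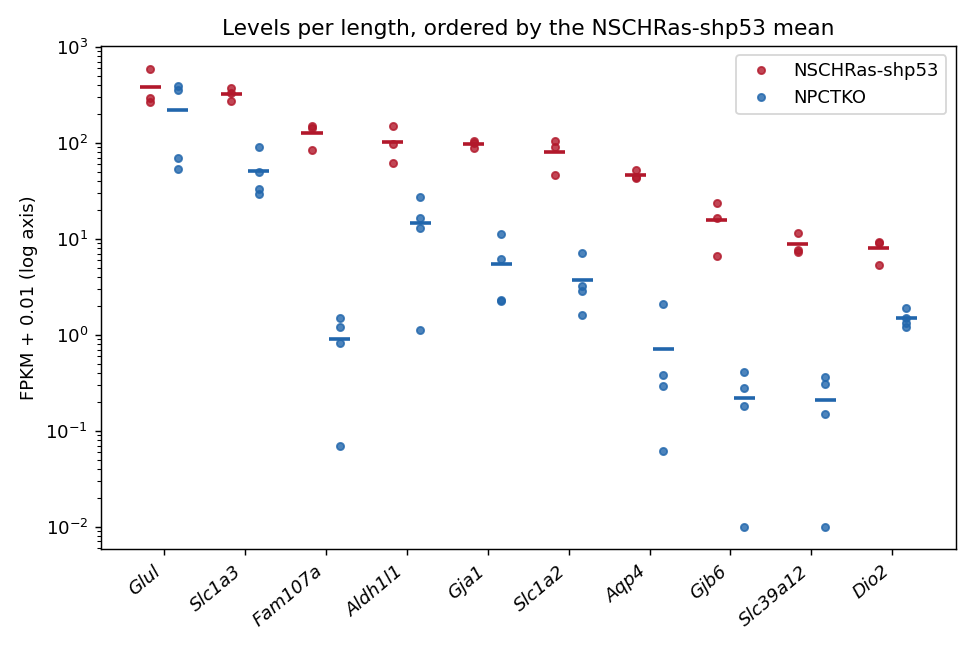
Deposited FPKM, with 0.01 added and on a log axis, of the 10 genes, ordered by the NSCHRas-shp53 mean. Points are libraries and bars are means. Apart from *Glul*, each gene has its NSCHRas-shp53 points above its NPCTKO points, and the NSCHRas-shp53 means run from 382 FPKM for *Glul* to 7.90 FPKM for *Dio2*.

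Among the NPCTKO libraries, the 10 genes did not move as one. NPCTKO 4 was highest of its group for 7 genes (*Aqp4*, *Slc1a2*, *Slc1a3*, *Gja1*, *Aldh1l1*, *Dio2* and *Slc39a12*), a place it held for 20.9% of all genes tested. NPCTKO 3 was lowest for 6 (*Aqp4*, *Gjb6*, *Aldh1l1*, *Fam107a*, *Slc39a12* and *Glul*), against 33.2% of all genes tested. NPCTKO 1 was lowest for the other 4 (*Slc1a2*, *Slc1a3*, *Gja1* and *Dio2*). NPCTKO 3, with the least *Aldh1l1*, *Aqp4* and *Fam107a*, held *Gja1* and *Slc1a2* at levels within the range of the other NPCTKO libraries. NSCHRas-shp53 1 was highest for 6 genes, against 36.1% of all genes tested, and NSCHRas-shp53 2 lowest for 5, against 32.1%.

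Markers of other cell types also differed between the groups. Of 13 neuron markers tested, 11 rose, and their summed level was 1276 to 1768 CPM in NSCHRas-shp53 and 135 to 360.4 CPM in NPCTKO. Endothelial markers (3 of 10 rose, 0 fell, and 1, *Flt1*, rose without NPCTKO 1 and 2) summed to 517 to 1080 CPM in NSCHRas-shp53 and 34.3 to 327 CPM in NPCTKO, and ependymal markers (2 of 6 rose, 0 fell) to 40.8 to 89.9 CPM in NSCHRas-shp53 and 9.90 to 23.2 CPM in NPCTKO. Of 10 mural markers, 5 rose and 1 fell (*Cspg4*, also a marker of oligodendrocyte precursors), at 335 to 507 CPM in NSCHRas-shp53 and 347 to 923 CPM in NPCTKO. Most of the NPCTKO sum is *Cspg4*, and the other 9 mural markers summed to 285 to 436 CPM in NSCHRas-shp53 and 26.1 to 37.4 CPM in NPCTKO. Markers of oligodendrocyte precursors (OPC) ran the other way, with 5 of 9 lower (7 without NPCTKO 1 and 2) and 0 higher, at 766 to 1148 CPM in NSCHRas-shp53 and 3004 to 6140 CPM in NPCTKO. Of 9 microglia and macrophage markers none was called, at 2177 to 6198 CPM in NSCHRas-shp53 and 414 to 21697 CPM in NPCTKO. Of 10 oligodendrocyte markers 1 rose (*Ermn*, lost with trends with GC content and length removed), at 1159 to 8376 CPM in NSCHRas-shp53 and 987 to 6456 CPM in NPCTKO. No marker with counts was at 0 in all libraries of a group. The part of cells other than tumor cells in the values of the 10 genes was not tested.

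**Figure D4:**
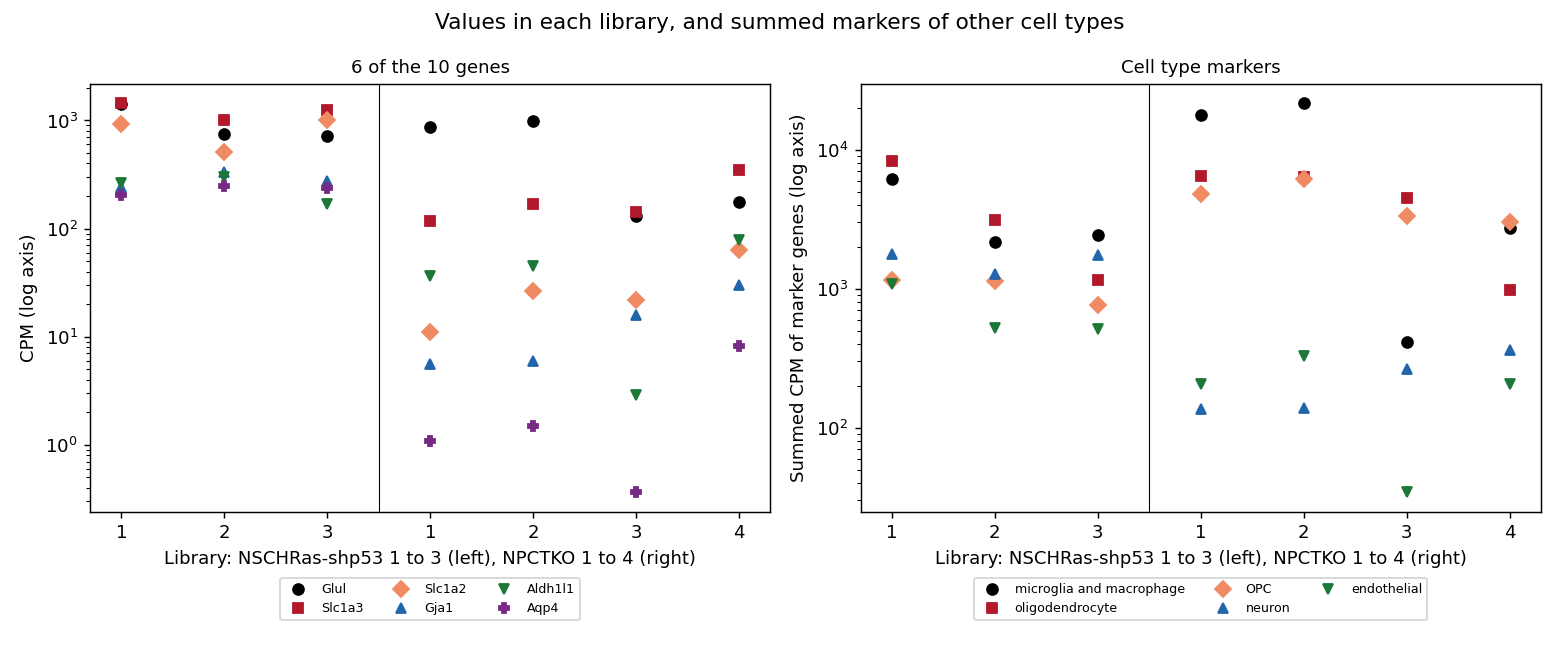
CPM of 6 of the 10 genes (left) and summed CPM of the markers of 5 cell types (right) in each library, on log axes, with NSCHRas-shp53 left of NPCTKO in each panel. Among the NPCTKO libraries, *Glul* and the microglia and macrophage markers are both high in libraries 1 and 2 (17707 and 21697 CPM for the markers), while *Aqp4* is highest in library 4 (8.22 CPM).

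Other genes of astrocytes rose in part. Of 45 other astrocyte genes tested, 19 rose and 0 fell, with a median log2 fold change of 1.66, and in limma on log2(FPKM + 1) 27 of 47 rose and 0 fell. *Gfap*, the intermediate filament of astrocytes, had 0 counts in all libraries of the count table and was listed at 716, 789 and 1096 FPKM in NSCHRas-shp53, against 30.6, 68.3, 19.1 and 86.9 FPKM in NPCTKO (log2 fold change 4.27 ± 0.52, SE, adjusted p = 0.0023 in limma). *Cpe*, carboxypeptidase E, was read at 2003, 1561 and 1549 CPM in NSCHRas-shp53, against 234, 258, 235 and 271 CPM in NPCTKO (log2 fold change 2.77 ± 0.33, SE; adjusted p = 0.0038 from edgeR). *Slc15a2*, a peptide transporter, had 27.6 to 33.5 CPM in NSCHRas-shp53 and 4.21 to 7.25 CPM in NPCTKO (log2 fold change 2.49 ± 0.32, SE; adjusted p = 0.0046 from edgeR). *Phkg1*, a subunit of phosphorylase kinase, had 15.8 to 20.6 CPM in NSCHRas-shp53 and 2.34 to 2.66 CPM in NPCTKO (log2 fold change 2.86 ± 0.33, SE; adjusted p = 0.0037 from edgeR). Several established astrocyte genes of this list were not called. Of these, *S100b*, *Apoe*, *Gpr37l1*, *Tril* and *Mfge8* leaned lower in NSCHRas-shp53 (log2 fold changes of -0.73, -0.28, -0.50, -0.88 and -0.20). All other tested genes of the list had log2 fold changes above 0. *Kcnj10*, the potassium channel that lies with aquaporin 4 in end-feet, had 342 to 386 CPM in NSCHRas-shp53 and 143 to 250.2 CPM in NPCTKO (adjusted p = 0.084 from edgeR), which is below its NSCHRas-shp53 values in every NPCTKO library. *Sox9*, a glial transcription factor, had 162, 173 and 158 CPM in NSCHRas-shp53, against 34.1, 21.7, 22.8 and 129.7 CPM in NPCTKO (adjusted p = 0.12 from edgeR), with NPCTKO 4 again the highest of its group.

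Of 21 genes of reactive astrocytes tested, 9 rose and 0 fell, with a median log2 fold change of 1.64. *Cd14*, *B3gnt5* and *Slc10a6* leaned lower without being called (log2 fold changes of -1.66, -1.37 and -0.90), and the other tested genes lay above 0. *Tgm1*, a transglutaminase, was read at 37.2, 147 and 74.6 CPM in NSCHRas-shp53, against 4.78, 3.67, 2.34 and 4.05 CPM in NPCTKO (log2 fold change 4.54 ± 0.51, SE; adjusted p = 0.0034 from edgeR). *Cp*, the copper carrier ceruloplasmin, had 213 to 280 CPM in NSCHRas-shp53 and 20.9 to 46.0 CPM in NPCTKO (log2 fold change 2.78 ± 0.34, SE; adjusted p = 0.0039 from edgeR). *Tm4sf1*, a membrane protein also found in endothelium, had 272 to 542 CPM in NSCHRas-shp53 and 14.3 to 42.3 CPM in NPCTKO (log2 fold change 3.84 ± 0.49, SE; adjusted p = 0.0046 from edgeR). *Ptx3*, a secreted pentraxin, had 0 counts in all libraries of the count table. It was listed at 44.8, 78.7 and 52.5 FPKM in NSCHRas-shp53, against 0.512, 0.377, 3.73 and 2.93 FPKM in NPCTKO. Its log2 fold change was 4.54 ± 0.49 (SE; adjusted p = 0.0016 from limma on log2(FPKM + 1)). *Timp1* and *Gfap*, of the same list and also at 0 counts, rose in limma as well. *Cxcl10*, likewise at 0 counts, was listed at 116 to 252 FPKM in NSCHRas-shp53 and 121 to 384 FPKM in NPCTKO. It was not called, with a log2 fold change of -0.52 ± 0.46 (SE; adjusted p = 0.48 from limma on log2(FPKM + 1)).

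**Figure D5:**
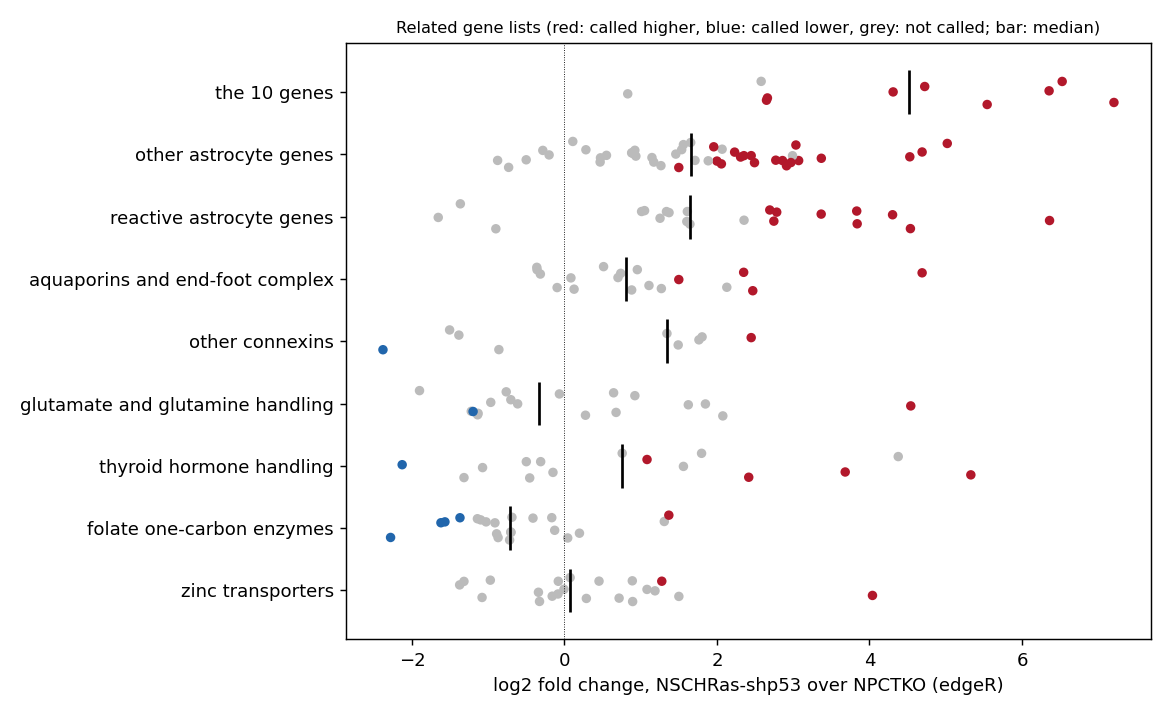
Log2 fold change from edgeR, NSCHRas-shp53 over NPCTKO, of the 10 genes and of the tested genes of 8 related lists, where each point is a gene, the bar is the median, red is called higher, blue called lower and grey not called. The median is 4.52 for the 10 genes, 1.66 for other astrocyte genes and -0.72 for folate one-carbon enzymes.

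The mean centred profile of the 10 genes over the 7 libraries, in log2(CPM + 0.5), was 2.70, 2.22 and 2.45 in NSCHRas-shp53, and -1.96, -1.61, -2.74 and -1.06 in NPCTKO. Of the 10, *Slc39a12* lay nearest to this mean (root mean square difference 0.27) and *Glul* farthest (1.81). Of 10840 other genes with a mean of at least 10 CPM, the nearest were *S1pr1* (0.41), *Galnt15* (0.45), *Loxl1* (0.46), *Fam167a* (0.48) and *Ecm1* (0.48), as root mean square differences over the 7 libraries. *S1pr1*, a receptor for sphingosine 1-phosphate, was read at 211, 300.2 and 214 CPM in NSCHRas-shp53, against 18.2, 16.4, 5.57 and 30.5 CPM in NPCTKO. With 1 CPM added in place of 0.5, 3 of these 5 genes stayed among the 5 nearest, and *S1pr1* stayed the nearest.

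Because most of the 10 genes were high in the same libraries, their promoters are shown for the letters they share or lack. RefSeq windows of 250 bases before the transcription start (assembly GRCm38.p6) were matched for 9 of the 10 genes, all but *Aqp4*. The 3 below are a glutamate transporter, the deiodinase and a connexin, chosen after the matches were seen. Capitals mark the NFI half-site TTGGC, read on either strand, in *Slc1a2* (chr2:102706188-102706437, plus strand) and *Dio2* (chr12:90739039-90739288, minus strand), and the AP-1 motif TGANTCA in *Gja1* (chr10:56377050-56377299, plus strand), each written 5′ to 3′ on the strand of the gene.
Slc1a2: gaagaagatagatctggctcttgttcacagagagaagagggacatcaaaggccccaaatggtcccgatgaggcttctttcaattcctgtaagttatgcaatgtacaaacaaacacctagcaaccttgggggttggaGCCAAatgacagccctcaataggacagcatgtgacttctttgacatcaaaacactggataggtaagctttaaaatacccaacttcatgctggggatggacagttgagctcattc
Dio2: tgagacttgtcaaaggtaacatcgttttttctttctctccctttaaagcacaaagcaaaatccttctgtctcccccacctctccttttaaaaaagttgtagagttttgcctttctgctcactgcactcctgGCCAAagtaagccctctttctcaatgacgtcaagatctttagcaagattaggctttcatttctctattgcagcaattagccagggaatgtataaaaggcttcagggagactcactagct
Gja1: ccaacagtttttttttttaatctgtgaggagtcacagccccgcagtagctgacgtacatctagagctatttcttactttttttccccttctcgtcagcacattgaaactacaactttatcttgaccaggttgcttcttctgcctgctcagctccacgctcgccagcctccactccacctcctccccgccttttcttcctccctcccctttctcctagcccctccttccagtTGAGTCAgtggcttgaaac

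Counted per gene, the NFI half-site was found for 4 of the 9 genes (*Slc1a2*, *Fam107a*, *Dio2* and *Glul*), against 45.3% of 27025 genes with a window, and its palindromic pair, the full NFI site, for 0 of the 9, against 0.0444%. The AP-1 motif was found for 1 of the 9, *Gja1*, against 7.82%, and the STAT motif TTCNNNGAA for 1, *Slc1a3*, against 8.13%. TTGCNNAA, a form of the C/EBP motif, was found for 3 (*Slc1a2*, *Aldh1l1* and *Dio2*), against 10.8%, and the SOX motif ACAAT for 1, *Slc1a3*, against 30.9%. All motifs were searched on both strands. No motif searched was found for most of the 9 genes, and a match describes letters and not binding. The windows with a match in *Slc1a2*, *Fam107a* and *Aldh1l1* lie inside the gene spans of the count table. That of *Dio2* lies before its span, as RefSeq starts these genes elsewhere.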

How the data were processed

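Bulk RNA-seq was analysed for 3 NSCHRas-shp53 and 4 NPCTKO samples. Raw counts per gene were deposited by the authors for mm10, with a row per gene name. How reads were counted is not stated in any source used here. Cufflinks 2.2.1 made the FPKM values deposited by the authors, after trimming (cutadapt 1.16 in the submitters' processing notes, another version in the methods) and mapping with TopHat2 2.1.1. RNA was isolated with TRIZOL per the labels and with RNAiso Plus per the methods, and the labelled kit is non-directional. The deposited length column holds the gene span, so levels between genes were compared in FPKM.

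The members and lists were chosen with earlier results of these data known. The models were compared in R 4.3.3 with the quasi-likelihood test of edgeR 4.0.16, after filterByExpr and TMM. The direction was NSCHRas-shp53 minus NPCTKO, with Benjamini-Hochberg adjustment over all genes tested. Each SE given for edgeR is the absolute log2 fold change divided by the square root of the F statistic of that test. The test was checked on simulated counts that did not hold the split of NPCTKO 1 and 2 from 3 and 4. That check does not cover calls under this split. FPKM rows with 1 gene name, after names of microRNA and small nucleolar RNA genes were dropped beside another name, were summed by gene and tested with limma 3.58.1 on log2(FPKM + 1). Tables were handled with Python 3.11.15, pandas 2.3.3 and numpy 2.4.6. Genes named are the 10, up to 3 higher and 3 lower with the smallest p of each related list, lists of 5 or fewer calls, and the 5 genes of nearest profile. *Dag1*, *Slc7a11*, *Kcnj10*, *Sox9*, *Gfap* and *Ptx3* were named after their values were seen, and some items that the rule selects are not reported here. Alternatives were DESeq2 1.42.0, its size factors, no TMM factors, other filters, FPKM with pseudocounts of 1 and 0.1, a replicate block and leaving out libraries.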

Additional observations from a re-analysis of the deposited data

Results flagged for a closer look

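On the CPM scale, *Aqp4* in NPCTKO was set apart by 1 library. Its 4 values were 1.08, 1.48, 0.365 and 8.22 CPM in NPCTKO libraries 1 to 4, and the gap between NPCTKO 4 and the next library made up 0.858 of the range of the group, above Dixon's critical value for 4 samples. Chance flags about 1 in 20 groups, and 10 genes were examined in NPCTKO. The check was not made on the log scale of the fold changes, where this gap is a smaller part of the range. Without NPCTKO 4 the log2 fold change of *Aqp4* was 7.89.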

How the results depend on the processing

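Over 10 genes and 17 alternative fits, 164 of 170 results kept their direction and their side of the threshold and 6 passed it anew, with 0 reversed. The genes called among the 10 numbered 8 or 9 in each fit, and 8 to 9 when single libraries were left out. *Aldh1l1* passed in DESeq2 (adjusted p = 0.0089), limma on log2(FPKM + 1), the fit with trends removed (0.043 from edgeR) and without NPCTKO 3, where the log2 fold change was 2.19, and *Glul* passed without NPCTKO 1 and 2 together (2.68).

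The counts over all genes, 1251 higher and 850 lower, depended more on the processing. DESeq2 gave 2024 higher and 1922 lower, a mean of at least 10 CPM 685 and 408, and no TMM factors 540 lower. Removing trends with GC content and length, an alternative chosen after seeing the data, gave 2148 lower. Leaving out single libraries gave 415 to 1387 higher and 124 to 1208 lower.

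The replicate numbers did not pair the samples (correlations of same-numbered deviations 0.27, -0.19 and 0.18). A fit with the replicate block called 718 higher and 323 lower, and 9 of the 10 genes, with *Aldh1l1* added (log2 fold change 3.71, adjusted p = 0.042 from edgeR).

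Calls in the related lists moved both ways. Other astrocyte genes that rose numbered 28 of 45 with trends removed, 21 without TMM factors and 16 without NPCTKO 1 and 2. With trends removed 5 of 18 glutamate genes, 7 of 21 folate genes and 4 of 21 zinc transporters fell, while *Ggh*, *Slco1a4* and *Ermn* were lost. In that fit 2 glutamate genes, 0 folate genes and 3 zinc transporters rose. Over all 15674 genes of the same fit, 2148 fell and 1474 rose, with a median log2 fold change of -0.27. *Slc38a3*, of the glutamate list, was not called in edgeR on all libraries. It rose with trends removed, without TMM factors, and without NPCTKO 1 and 2. Without TMM factors *Asns*, *Slc39a10* and *Slc19a1* were lost, and without NPCTKO 1 and 2 *Gjb2*, *Slco1a4*, *Slc30a3*, *Slc19a1* and *Tek*. Low counts in NPCTKO limit *Gjb6* and *Slc39a12*, whose fitted folds depend on the prior count.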
